A study of Mus musculus with 71 samples.

Results

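Of the 25697 probes of an Illumina MouseRef-8 v2 bead array, 5 were followed array by array through 71 arrays of mouse cerebellum RNA. They were chosen by their measured values, as probes whose intensity differed several-fold between arrays of one and the same group, so the width of their spread is a description and no result. The platform annotation names 4 of them: ILMN_2676852 reads Slc6a3 (chromosome 13), ILMN_2732698 reads Gabra6 (chromosome 11), ILMN_1247257 reads Gpd2 (chromosome 2) and ILMN_2756486 reads Aqp1 (chromosome 6), with chromosomes from the RefSeq table of GRCm38.p6. ILMN_3159435 is paired with no gene in the tables used here and is called by its ID.

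The mice were male C57BL/6 animals, either wild type (WT) or Csbm/m, written Csb here. Csbm/m mice carry a mutation of CSB (Ercc6), which acts in transcription-coupled DNA repair and is lost in Cockayne syndrome. A diet arm of 42 arrays came from 1-year-old mice that had been on their diet for 8 months, starting at 4 months. They received a standard diet (6 Csb and 4 WT arrays), a high-fat diet with 60% of calories from fat (7 and 4), 40% caloric restriction (6 and 4) or resveratrol at 100 mg per kg of chow (6 and 5). In an injection arm of 29 arrays, mice of 4 months (young) or 18 months (old) were injected daily for 1 week with saline or with nicotinamide riboside (NR), from which cells make NAD+, at 500 mg per kg per day. The young groups held 3 Csb and 4 WT arrays after saline and 3 and 4 after NR, and the old groups held 3 and 3 after saline and 4 and 5 after NR. No label states that each array is a separate animal or which animals shared a litter, so the p-values rest on variation among arrays, which may be technical. The table holds no probe of Ercc6, so the targeted gene was not checked here.

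The cerebellum is built mainly from granule cells, very many small neurons, and from Purkinje cells, large neurons that carry its output. Gabra6 encodes a subunit of the GABA-A receptor that is a marker of cerebellar granule cells. Slc6a3 encodes the dopamine transporter, which takes dopamine back into midbrain dopamine neurons. Aqp1 encodes a water channel of the choroid plexus, the epithelium that secretes cerebrospinal fluid and lies beside the cerebellum in the adjoining ventricle. Gpd2 encodes the mitochondrial glycerol-3-phosphate dehydrogenase, which passes electrons from cytosolic glycerol-3-phosphate to the respiratory chain and has no such restriction to a cell type.

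Values are given on 2 scales. An intensity is the deposited value of a probe on a linear scale, not normalized, and the 95th percentile of an array's intensities ran from 1691 to 6686 over the 71 arrays. A probe is called detected on an array where its detection p-value, its rank against the negative controls, is under 0.01. A level is the log2 intensity after background correction and quantile normalization within an arm. A comparison is called where limma's moderated test gives a Benjamini-Hochberg adjusted p under 0.05 over all probes kept in that arm, 14883 in the diet arm and 13948 in the injection arm. Between 46.3% and 58.0% of probes were detected per array. Pairwise correlations of arrays reached 0.995, and 0 pairs were identical.

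In 4 arrays Pcp2 and Gabra6 were lowest, and the calls, ranges, gaps and correlations of the members are also given without these arrays where they enter them. Pcp2, a Purkinje cell gene, read 144.6 in WT standard-diet replicate 1, 265.8 in Csb restricted replicate 6, 644.7 in Csb standard-diet replicate 1 and 880.9 in Csb standard-diet replicate 3, against 3079.6 in the next lowest array. The mean level of 2 granule cell probes outside the chosen 5 (Neurod1 and Zic1) was 7.88 to 8.96 in these 4 arrays and 9.82 to 12.7 in the other 67. Csb standard-diet replicate 3 was within the other 67 for Zic1 (7351.8, against a lowest of 4872.4) and for Pvalb, a gene of Purkinje cells and interneurons (24324.6, against 11853.3). Gabra6 was not detected in these 4 arrays and was detected in all 67 others. Of the 6 genes listed as markers of forebrain, brainstem or pituitary, Th, the rate-limiting enzyme of dopamine synthesis, read 674.5, 579.6, 532.1 and 393.8 in the same order. Hcrt, a neuropeptide of the lateral hypothalamus, read 825.4 in WT standard-diet replicate 1 and was not detected in the other 3. Slc6a4, the serotonin transporter, read 88.6 (not detected), 1013.1, 1631.3 and 244.1, and Dbh, an enzyme of noradrenaline synthesis, read 72.2 and 88.4 (neither detected), 164.6 and 229.9. The pituitary hormone genes Gh and Prl were detected in none of the 4. All 4 arrays belong to the diet arm.

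Slc6a3 was near the background on most arrays and more than 10 times brighter on a few. It was detected on 27 of 71 arrays, with intensities from 60.4 (old Csb NR replicate 4) to 2275 (WT standard-diet replicate 1), a 37.7-fold range around a median of 91.9. In 8 of the 16 groups the brightest array exceeded the dimmest by more than 3-fold. Its 3 brightest arrays were among the 4 low in Pcp2. The remaining array of the 4, Csb standard-diet replicate 3, read 108.2 and did not detect it. Without the 4 arrays low in Pcp2, the range was 21.7-fold and 6 groups exceeded 3-fold. The range within standard-diet WT then fell from 28.2-fold to 1.76-fold and within standard-diet Csb from 20.8-fold to 2.51-fold. Within restricted Csb it fell from 23.6-fold to 9.14-fold.

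In Csb mice on the standard diet, Slc6a3 ran from 88.2 to 1833.5 with a median of 144.2, and replicate 1 alone held the high value. In restricted Csb mice it ran from 81.4 to 1918.9 with a median of 137.4, with replicates 5 (743.8) and 6 above the other 4. In high-fat Csb mice it ran from 86.7 to 757.2 with a median of 124.7. Each of these 3 groups thus held 1 or 2 bright arrays among dim ones. With resveratrol the Csb arrays ran from 71.3 to 218.1 with a median of 78.2.

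The WT standard-diet arrays read 2275, 96.1, 80.8 and 142.4, so that the brightest Slc6a3 array of the series stood beside 2 arrays in which the probe was not detected. WT arrays on the other diets stayed at or under 126.2. High-fat WT arrays read 65.9, 65.1, 67.4 and 104.1, and restricted WT arrays read 87.9, 79, 75.5 and 65.8. The WT resveratrol arrays read 73.1, 126.2, 101.1, 63.7 and 63.3.

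Among injected mice the bright arrays came from old animals. Old Csb saline arrays read 1313.2, 1253.1 and 754.0, all detected, against 91.9, 65.5 and 70.3 in young Csb saline arrays, none detected. The 2 groups did not overlap. Old Csb NR arrays read 314.5, 72.6, 295.3 and 60.4, old WT saline arrays 303.0, 631.7 and 62.3, and old WT NR arrays 61.8, 756.9, 70.3, 102.1 and 727.2. Each of these 3 groups therefore held detected arrays beside arrays in which the probe was not detected. Young Csb NR arrays read 103.1, 70.2 and 65, young WT saline arrays 72.5, 68.7, 149.8 and 68.4, and young WT NR arrays 62.6, 82.8, 171.5 and 62.5.

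Sorted over 71 arrays, the largest gap of Slc6a3 with at least 5 arrays on either side lay between 314.5 and 631.7, a log2 step of 1.01, with 60 arrays below and 11 above. The gap was the same without the 4 arrays low in Pcp2, with 59 arrays below and 8 above. The 11 arrays above the gap were all 3 of old Csb saline, 2 each of restricted Csb and old WT NR, and 1 each of standard-diet Csb, high-fat Csb, standard-diet WT and old WT saline.

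The probe whose deviations from its group means followed those of Slc6a3 most closely read Chrna6, a nicotinic receptor subunit of midbrain dopamine neurons (Pearson r = 0.87 over 71 arrays, 0.80 without the 4 arrays low in Pcp2). Chrna6 was detected on 7 of the 11 arrays above the gap and on 3 of the 60 below it. Its brightest arrays were Csb standard-diet replicate 1 (237.6), Csb restricted replicate 6 (218.2) and WT standard-diet replicate 1 (199.2), the same 3 that led for Slc6a3. The next probes were ILMN_3118071, with no gene name (r = 0.84), and Otx1, a homeobox transcription factor (r = 0.75). Otx1 was detected on 53 of 71 arrays. ILMN_2809443, with no gene name, had the lowest r, at -0.74. These r values describe how probes moved over arrays that each come from 1 RNA sample, and carry no test.

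Among the comparisons Slc6a3 was called in 1. In Csb mice after saline its level was 10.04 ± 0.40 (SD, n = 3) in old and 4.84 ± 0.44 (SD, n = 3) in young mice, a log2 difference of 5.20 (SE 1.17, limma adjusted p = 0.0234), and old mice were at least 18.8-fold higher because no young array detected the probe. In this comparison 3.28% of all probes were called, and Slc6a3 was 1 of 5 members called. The call was lost in 4 of 29 leave-outs of a single array, with an adjusted p of up to 0.12 without young Csb saline replicate 2. Chrna6, picked by its r with Slc6a3 over these same arrays, rose as well in the same comparison (log2 difference 1.91, SE 0.32, limma adjusted p = 0.00356). It was detected on 3 of 3 old arrays (118.4 to 146.5) and 0 of 3 young arrays (61.2 to 79.4), so the size of its difference is not exact.

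Of the genes listed for forebrain, brainstem or pituitary, Th and Slc6a4 read higher in all old than in all young Csb saline arrays, while Dbh overlapped. All 6 on the list have a probe, and the mean level of the 4 probes that were kept was 6.76 to 7.51 in old and 5.20 to 6.40 in young Csb saline arrays, with no overlap. Th read 302.3, 317.1 and 258.7 in old against 151.2, 111.6 and 169.9 in young arrays. Slc6a4 read 498.2, 604.5 and 489.3 against 424.5, 99.9 and 72.6. Dbh read 81.9, 103.2 and 90.3 against 113.5, 67.5 and 81, and was detected on 1 array of each group. Of the 2 probes not kept, Prl was detected on 1 array of the series and Hcrt on 2. The highest values of Prl (192.2) and Gh (199.6) in the series were both in old Csb saline replicate 3, 1 of the 3 arrays behind the Slc6a3 call. The other arrays of these 2 groups detected neither gene. The part of tissue piece in the Slc6a3 difference was not tested, and in bulk RNA fewer cells of a type and less RNA per cell cannot be told apart. After NR, old Csb mice stood below old Csb saline mice by a log2 difference of -3.61 (SE 1.10), which missed the threshold (limma adjusted p = 0.355).

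Gabra6 was the member with the widest range. Intensities ran from 72.6 (WT standard-diet replicate 1) to 3080.3 (Csb high-fat replicate 7), a 42.4-fold range around a median of 640.2, and 67 of 71 arrays detected it. Without the 4 arrays low in Pcp2 the range was 18.5-fold, from 166.8 to 3080.3, and the largest fold within a group fell from 29.9 to 4.08. Most of its width within groups therefore lay in those 4 arrays.

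Csb arrays on the standard diet ran from 110.7 to 1385.5 with a median of 738.0. Under the high-fat diet they ran from 1028.7 to 3080.3 with a median of 2087.4, under restriction from 75.7 to 2266.4 with a median of 1224.9, and with resveratrol from 1082.6 to 2827.0 with a median of 2020.6. High-fat and resveratrol arrays thus lay mostly above the standard-diet arrays, with overlap at the upper end of the latter. WT standard-diet arrays read 72.6, 1426.9, 1473.7 and 1176.9, high-fat arrays 528.2, 1860.3, 724.1 and 796.7, and restricted arrays 1239.8, 1068.2, 2473.8 and 1798.3. The WT resveratrol arrays read 2296.8, 563.6, 750.8, 640.2 and 795.7, 1 array standing well above the other 4.

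Gabra6 was dimmer in the injection arm, where all 29 arrays detected it. Young Csb arrays read 265.8, 273.0 and 382.6 after saline and 260.5, 679.4 and 371.6 after NR. Old Csb arrays read 239.7, 314.9 and 166.8 after saline and 313.2, 484.6, 308.0 and 378.0 after NR. No Csb group of this arm reached the median of the high-fat or resveratrol Csb groups, but the arms were normalized separately and not compared by a test. Young WT arrays read 384.4, 324.4, 332.7 and 469.7 after saline and 266.0, 210.7, 267.0 and 334.3 after NR. Old WT arrays read 252.0, 597.4 and 825.1 after saline and 303.7, 549.3, 593.7, 536.7 and 359.9 after NR. Of the injection groups only old WT saline exceeded a 3-fold range within a group.

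In the diet arm the 4 arrays low in Pcp2 read 72.6 to 125.3 and the other 38 read 528.2 or more, a log2 step of 2.08 between the highest of the former and the lowest of the latter. Over all 71 arrays the largest gap with at least 5 arrays on either side, between 166.8 and 210.7, was a log2 step of 0.34 with 5 arrays below and 66 above. Leaving out the 4 arrays put it between 384.4 and 469.7, a log2 step of 0.29 with 21 arrays below and 46 above. The probes closest to Gabra6 read Il16 (r = 0.96), a cytokine gene with a neuronal form in cerebellar granule cells, Crtam (r = 0.95), a cell surface receptor known from immune cells, and Neurod1 (r = 0.95), a transcription factor of granule cells. Without the 4 arrays low in Pcp2 these r values were 0.80, 0.75 and 0.88. Pnck, a calcium/calmodulin-dependent kinase, had the lowest r (-0.77). As many as 213 probes followed Gabra6 with r over 0.7, against 5 for Slc6a3, 28 for Aqp1, 1 for ILMN_3159435 and 0 for Gpd2.

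In Csb mice Gabra6 was called higher on 2 diets than on the standard diet. Its level was 10.79 ± 0.52 (SD, n = 7) on the high-fat diet against 8.19 ± 2.28 (SD, n = 6), a log2 difference of 2.61 (SE 0.83, limma adjusted p = 0.0274). With resveratrol it was 10.87 ± 0.60 (SD, n = 6), a log2 difference of 2.69 (SE 0.86, limma adjusted p = 0.033) from the same standard-diet arrays, so the 2 differences share their controls. Without the 4 arrays low in Pcp2, 2 of which are standard-diet Csb arrays, the differences were 1.17 (SE 0.34, limma adjusted p = 0.0275) and 1.24 (SE 0.35, limma adjusted p = 0.0209). The size of both differences thus fell by more than 1 log2 unit while both calls held. With a replicate block the high-fat call was lost (log2 difference 2.50, limma adjusted p = 0.0533, or 0.0651 by sample name). Single leave-outs ended the high-fat call in 4 and the resveratrol call in 6 of 42 cases, most strongly for Csb standard-diet replicate 3 (limma adjusted p = 0.121 and 0.12).

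The granule cell probes outside the members moved in the same direction. The mean level of Neurod1 and Zic1 ran from 8.34 to 11.82 on the standard diet, from 11.31 to 12.66 on the high-fat diet and from 11.75 to 12.58 with resveratrol in Csb mice. Neurod1 was itself called higher on the high-fat diet (log2 difference 2.22, SE 0.61, limma adjusted p = 0.0118) and with resveratrol (2.28, SE 0.63, limma adjusted p = 0.015). The 2 differences of Neurod1 without the 4 arrays low in Pcp2 were 1.13 (SE 0.33, limma adjusted p = 0.0275) and 1.18 (SE 0.34, limma adjusted p = 0.0233). The part of granule cell content in the Gabra6 result was not tested.

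Aqp1 was detected on 62 of 71 arrays. Intensities ran from 64.1 (young WT saline replicate 4) to 1161.1 (Csb high-fat replicate 2), an 18.1-fold range around a median of 340.8, and 8 of 16 groups exceeded 3-fold. Leaving out the 4 arrays low in Pcp2 changed neither the range nor that number of groups. Of the 9 arrays that did not detect it, 7 were Csb arrays of the diet arm and 2 were WT arrays of the injection arm.

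Csb arrays on the standard diet ran from 92.2 to 307.5 with a median of 126.9, 4 of the 6 not detected. On the high-fat diet they ran from 94.2 to 1161.1 with a median of 293.6, under restriction from 104.6 to 626.3, and with resveratrol from 172.4 to 518.1 with a median of 336.0. Of the 4 Csb diet groups, only the resveratrol group had the probe detected on all its arrays. WT arrays read 250.6, 496.0, 367.8 and 522.4 on the standard diet, 283.7, 242.8, 381.7 and 178.9 on the high-fat diet and 409.7, 153.5, 771.9 and 272.3 under restriction. The WT resveratrol arrays read 795.6, 274.0, 259.9, 385.2 and 271.4. All 17 WT diet arrays detected Aqp1.

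After injection 2 WT arrays fell far below the rest of their groups. Young WT saline arrays read 659.7, 150.8, 386.3 and 64.1, and old WT saline arrays read 222.8, 488.5 and 75.7. Young WT NR arrays read 484.4, 646.3, 344.6 and 239.3, and old WT NR arrays read 365.1, 360.0, 661.5, 373.7 and 335.7. After NR no WT array was below 239.3. Csb arrays were all detected, at 369.7, 507.6 and 340.1 (young saline), 505.9, 671.5 and 430.2 (young NR), 422.3, 365.8 and 146.3 (old saline) and 461.7, 389.1, 340.8 and 509.8 (old NR).

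The largest gap of Aqp1 lay between 112.7 and 146.3, a log2 step of 0.38, with 8 arrays below and 63 above, or 6 and 61 without the 4 arrays low in Pcp2. These 8 were 3 of standard-diet Csb, 2 of restricted Csb, and 1 each of high-fat Csb, young WT saline and old WT saline. The choroid plexus transcripts Ttr, which encodes the thyroid hormone carrier transthyretin, and Kl, which encodes klotho, were low in the same arrays, with little overlap. Ttr read 117.2 to 4334.8 in the 8 arrays and 3044.3 to 46334.9 in the 63, and Kl read 73.5 to 177.8 against 169.8 to 1727.9.

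The 2 other Aqp1 probes on the array, ILMN_2980661 and ILMN_2980663, were those that followed ILMN_2756486 most closely (r = 0.93 and 0.88), and neither was detected on any of the 8 arrays below the gap. Kcne2, a potassium channel subunit of choroid plexus epithelium, came next (r = 0.88) and was detected on 62 of the 63 arrays above the gap and on none of the 8 below. ILMN_2599997, with no gene name, had the lowest r (-0.76). The variation between arrays was thus shared by 3 probes of Aqp1 and by the choroid plexus transcripts Kcne2, Ttr and Kl. Kcne2 was picked by its r over these same arrays, so its split at the gap is a description. Clic6, also on the choroid plexus list, overlapped. It read 836.4 or more in old WT saline arrays, 1 of them below the gap, and down to 693.3 in restricted WT arrays, all above it.

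Aqp1 was called in 3 comparisons, all of which include the Csb standard-diet arrays. Against WT on the same diet its level was 6.02 ± 1.36 (SD, n = 6) to 8.22 ± 0.73 (SD, n = 4), a log2 difference of -2.20 (SE 0.71, limma adjusted p = 0.0338). Against Csb standard-diet mice it was higher on the high-fat diet, at 7.94 ± 1.73 (SD, n = 7; log2 difference 1.92, SE 0.61, limma adjusted p = 0.0283), and with resveratrol, at 7.96 ± 0.64 (SD, n = 6; 1.94, SE 0.64, limma adjusted p = 0.0374). In each the groups overlapped. Leaving out 1 of the 42 arrays ended the genotype call in 7 cases (limma adjusted p up to 0.109, without WT standard-diet replicate 4), the high-fat call in 6 (up to 0.0793, without Csb high-fat replicate 2) and the resveratrol call in 9 (up to 0.0816, without Csb standard-diet replicate 6). None of the 3 calls held without the 4 arrays low in Pcp2 (limma adjusted p = 0.0742, 0.135 and 0.133, with log2 differences of -2.19, 1.57 and 1.58). The other Aqp1 probes were called in none of these comparisons. ILMN_2980661 differed by -0.64, 0.94 and 0.97 (limma adjusted p = 0.334, 0.0704 and 0.0825), and ILMN_2980663 by -0.90, 0.72 and 0.89 (limma adjusted p = 0.119, 0.131 and 0.0815).

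The mean level of the 5 choroid plexus probes outside Aqp1 (Ttr, Kl, 2 of Folr1 and Clic6) moved with it. It ran from 6.34 to 9.80 with a median of 7.84 in standard-diet Csb mice, from 7.39 to 10.42 with a median of 10.20 in standard-diet WT mice, from 6.63 to 11.07 with a median of 9.70 in high-fat Csb mice and from 9.09 to 10.42 with a median of 9.93 with resveratrol in Csb mice. Kcne2 was called higher with resveratrol in Csb mice (log2 difference 2.21, SE 0.68, limma adjusted p = 0.0288), which missed the threshold without the 4 arrays low in Pcp2 (1.93, SE 0.66, limma adjusted p = 0.0576). The part of choroid plexus content in the Aqp1 calls was not tested.

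Gpd2 differed from the other members in that every array detected it. Its dimmest arrays all came from Csb mice of the injection arm. Intensities ran from 237 (old Csb saline replicate 3) to 3479.3 (WT standard-diet replicate 1), a 14.7-fold range around a median of 1598.5. Only 1 group, young Csb saline, exceeded 3-fold. Its 3 arrays read 281.3, 1786.9 and 304.4, so 1 array stood 6.35-fold above the lowest.

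In the injection arm all 16 WT arrays were bright and most Csb arrays were dim. Old Csb arrays read 317.3, 361.1 and 237.0 after saline and 307.5, 298.2, 252.7 and 319.6 after NR. Old WT arrays read 1677.0, 2654.3 and 2459.5 after saline and 1956.3, 2957.3, 1987.6, 2332.3 and 2125.1 after NR. The genotypes did not overlap in old mice after either injection. Young Csb NR arrays read 1334.2, 3316.3 and 1531.4, within or above the young WT NR arrays at 1182.0, 1416.4, 1123.2 and 1239.8. Young WT saline arrays read 2462.3, 1103.5, 2823.0 and 1902.2.

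In the diet arm the Csb arrays were less dim. They ran from 769.9 to 2201.6 with a median of 1650.2 on the standard diet, from 934.0 to 2053.4 on the high-fat diet, from 692.1 to 1875.5 under restriction and from 695.9 to 993.3 with resveratrol. The resveratrol group was the most even. WT arrays read 3479.3, 2914.9, 3026.7 and 3441.8 on the standard diet, 976.0, 1938.9, 1610.8 and 1216.2 on the high-fat diet and 2264.1, 1840.7, 2621.8 and 1718.2 under restriction. The WT resveratrol arrays read 2358.7, 1921.6, 2033.5, 1563.3 and 1500.0. In deposited intensity, standard-diet WT arrays stood above all arrays of the other diet groups. In normalized levels they overlapped the other WT diet groups. Levels ran from 11.21 to 11.58 on the standard diet, and up to 11.54 with resveratrol, 11.30 on the high-fat diet and 11.27 under restriction.

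The largest gap of Gpd2 lay between 361.1 and 692.1, a log2 step of 0.94, with 9 arrays below and 62 above, or 58 above without the 4 arrays low in Pcp2. All 9 arrays below it were Csb arrays of the injection arm: 3 of 3 old saline, 4 of 4 old NR and 2 of 3 young saline. No array of the diet arm lay below it.

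Gpd2 was called in 6 of 22 comparisons. In old mice its level in Csb was 8.06 ± 0.21 (SD, n = 3) against 11.02 ± 0.01 (SD, n = 3) in WT after saline, a log2 difference of -2.96 (SE 0.46, limma adjusted p = 9.2e-04), where 0.229% of all probes were called. After NR it was 8.03 ± 0.14 (SD, n = 4) against 11.11 ± 0.15 (SD, n = 5), a log2 difference of -3.09 (SE 0.38, limma adjusted p = 5.7e-05), where 0.0574% of all probes were called. Both calls held in all 29 leave-outs of a single array and in all 8 alternative settings. In young mice the difference after saline was -1.99 (SE 0.43, limma adjusted p = 0.111) and missed the threshold, with 0.0502% of probes called and 0 of 5 members. After NR in young mice it was 0.16 (limma adjusted p = 0.999), with 0.0143% of probes called and 0 of 5 members.

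Old Csb NR mice also stood below young Csb NR mice, at 8.03 ± 0.14 (SD, n = 4) against 10.59 ± 0.48 (SD, n = 3), a log2 difference of -2.56 (SE 0.43, limma adjusted p = 0.0194). In that comparison 0.0143% of all probes were called, and Gpd2 was 1 of 5 members called. This call was lost in 7 of 29 leave-outs, with an adjusted p of up to 0.336 without young Csb NR replicate 2, and with no filter on dim probes (limma adjusted p = 0.103). The test of whether the age difference after NR depended on genotype gave -3.25 (SE 0.57, limma adjusted p = 0.0805), the lowest adjusted p among the interactions of the members.

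In the diet arm Gpd2 was lower in Csb on 3 of 4 diets. On the standard diet its level was 10.10 ± 0.55 (SD, n = 6) against 11.38 ± 0.15 (SD, n = 4), with no overlap (log2 difference -1.28, SE 0.26, limma adjusted p = 7.9e-04). With resveratrol it was 9.48 ± 0.14 (SD, n = 6) against 11.19 ± 0.28 (SD, n = 5), also with no overlap (-1.71, SE 0.24, limma adjusted p = 2.3e-06). These 2 calls held in all 42 leave-outs and all 10 alternative settings. Under restriction it was 9.97 ± 0.72 (SD, n = 6) against 11.17 ± 0.08 (SD, n = 4), a log2 difference of -1.20 (SE 0.26, limma adjusted p = 0.0171). The levels did not overlap, although the deposited intensities given above did. This restriction call was lost in 6 of 42 leave-outs, with an adjusted p of up to 0.0829 without WT restricted replicate 1, and with only the groups compared in the fit (0.176). On the high-fat diet the difference was -0.52 (SE 0.25, limma adjusted p = 0.194).

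The second Gpd2 probe, ILMN_1215797, did not share these differences. It was detected on all 71 arrays at 106.6 to 816.3, and its deviations from group means did not follow those of ILMN_1247257 (r = -0.05). In old mice it read 136.5, 140.2 and 141.2 in Csb against 139.1, 165.9 and 193.6 in WT after saline, with overlap. It was called in none of the 8 genotype comparisons. Its difference in old mice was -0.22 after saline (limma adjusted p = 0.711) and -0.31 after NR (limma adjusted p = 0.457), and on the standard diet it was 0.04 (limma adjusted p = 0.905). It was called higher on the high-fat than on the standard diet in Csb (0.45, limma adjusted p = 0.0386) and in old than in young WT mice after NR (0.71, limma adjusted p = 0.0117). The 2 probes of Gpd2 thus disagree on genotype, and the level of the gene as a whole is uncertain.

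No probe followed Gpd2 closely. The highest r values were 0.44 for Thap4, which encodes a THAP domain protein, 0.44 for Elmo1, a regulator of Rac activation, and 0.43 for Gsk3a, a serine/threonine kinase, and the lowest was -0.46 for ILMN_2621596, with no gene name. For Thap4 the value was 0.64 in the injection arm and -0.02 in the diet arm. Thap4 was called lower in Csb on each of the 4 diets, by log2 differences of -1.03 to -1.45, and in old mice after NR (-1.84, SE 0.34, limma adjusted p = 0.0201).

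ILMN_3159435 was high in many Csb arrays and low in WT arrays of both arms. It was detected on 65 of 71 arrays at 95.1 (young WT saline replicate 4) to 1663.5 (Csb standard-diet replicate 6), a 17.5-fold range around a median of 204.2. In 6 of 16 groups the range exceeded 3-fold, with and without the 4 arrays low in Pcp2, and all 6 were Csb groups. The 17 WT diet arrays ran from 111.8 to 361.4 with a median of 156.2, and 13 of the 25 Csb diet arrays exceeded all of them. The 16 WT injection arrays ran from 95.1 to 236.8 with a median of 151.1, and 9 of the 13 Csb injection arrays exceeded all of them.

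Csb arrays on the standard diet ran from 546.4 to 1663.5 with a median of 830.8, and all 6 exceeded the WT standard-diet arrays at 361.4, 163.1, 204.2 and 162.2. On the high-fat diet the Csb arrays split, with 110.7, 117.3 and 115.6 not detected and the other 4 between 280.7 and 618.0. The median of the 7 arrays was 280.7. Restricted Csb arrays ran from 125.4 to 1541.8 with a median of 487.9, the widest group at 12.3-fold. With resveratrol the Csb arrays ran from 241.8 to 514.2 with a median of 329.6, 2.13-fold from lowest to highest.

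WT arrays on the other diets were even, at 134.8, 174.1, 138.1 and 167.5 (high-fat), 124.3, 120.4, 156.2 and 122.6 (restricted) and 239.1, 136.1, 111.8, 136.6 and 161.5 (resveratrol). After injection the Csb arrays read 134.5, 489.2 and 366.5 (young saline), 395.7, 862.5 and 183.2 (young NR), 168.2, 501.5 and 479.3 (old saline) and 680.4, 201.7, 408.2 and 298.1 (old NR). Each Csb injection group thus held 1 array within the range of the WT arrays beside brighter ones. WT arrays read 118.4, 136.6, 211.4 and 95.1 (young saline), 152.5, 218.4, 135.1 and 170.1 (young NR), 131.1, 135.9 and 170.3 (old saline) and 115.7, 236.8, 149.6, 168.1 and 162.6 (old NR).

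The largest gap of ILMN_3159435, between 727.7 and 862.5, was a log2 step of 0.25 with 66 arrays below and 5 above. With the 4 arrays low in Pcp2 left out it lay between 241.8 and 280.7, a log2 step of 0.22. The 5 arrays above the former gap were 3 of standard-diet Csb, 1 of restricted Csb and 1 of young Csb NR. The closest probe read Mid1, a microtubule-associated ubiquitin ligase (r = 0.76, and 0.81 without the 4 arrays low in Pcp2), followed by Scrib, a cell polarity scaffold (r = 0.54), and Dvl1, a Wnt signalling protein (r = 0.53). Cd55, an inhibitor of complement, had the lowest r (-0.56). Mid1 was brighter on the 5 arrays above the gap, at 129.7 to 270.6, than on most of the 66 below, at 68.2 to 179.7.

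ILMN_3159435 was called in 2 comparisons. On the standard diet its Csb level was 9.38 ± 0.71 (SD, n = 6) and its WT level 7.06 ± 0.54 (SD, n = 4), with no overlap, a log2 difference of 2.32 (SE 0.58, limma adjusted p = 0.00674). In Csb mice it was lower on the high-fat diet, at 7.13 ± 1.44 (SD, n = 7), than on the standard diet, by a log2 difference of -2.25 (SE 0.50, limma adjusted p = 0.00283), with overlapping arrays. Both calls held in all 42 leave-outs and all 10 alternative settings. Without the 4 arrays low in Pcp2 the differences were 2.73 (limma adjusted p = 0.0106) and -2.42 (limma adjusted p = 0.00821). Mid1 was also called lower on the high-fat diet in Csb (-1.01, SE 0.29, limma adjusted p = 0.0178, and -1.35 without the 4 arrays, SE 0.30, limma adjusted p = 0.00624). Mid1 was detected on only 32 of 71 arrays, among them 2 of 7 high-fat and 5 of 6 standard-diet Csb arrays. The size of its difference is therefore not exact. The genotype difference of ILMN_3159435 on the high-fat diet went the other way and was not called (level 7.13 in Csb, 7.36 in WT). With resveratrol its level was 8.10 in Csb and 7.05 in WT, and in young mice after NR 8.13 and 7.09. Neither of these was called. Genotype differences of ILMN_3159435 under restriction (1.80, SE 0.58), in young mice after saline (1.54, SE 0.55) and in old mice after saline (1.66, SE 0.59) or NR (1.58, SE 0.48) missed the threshold, at limma adjusted p = 0.188, 1, 0.285 and 0.172.

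The arrays of the groups compared also differed in brightness. The share of probes detected on the standard diet was 48.8% to 50.8% in Csb and 53.9% to 55.6% in WT arrays. On the standard diet the background level, the median intensity of probes with a detection p over 0.5, was 72.5 to 82.7 in Csb and 65.6 to 68.5 in WT arrays, and the highest intensity was 42555 to 45705 against 50054 to 50745, neither of which overlapped. Under restriction both were higher in Csb, the background at 72.5 to 79.1 against 54.8 to 62.4 and the highest intensity at 41955 to 45970 against 32705 to 35118, so the highest intensity differed the other way from the standard diet. With resveratrol the background was 62.6 to 70.7 in Csb and 57.2 to 60.7 in WT arrays. In old mice after NR it was 53.7 to 58.0 in Csb and 55.2 to 57.8 in WT arrays, with overlap. Groups compared for diet and age differed too. Csb resveratrol arrays had a highest intensity of 34056 to 37727, and overlapped standard-diet Csb arrays neither in it nor in background. High-fat Csb arrays overlapped the latter in both. After saline the highest intensity was 33621 to 36978 in old and 39025 to 40796 in young Csb arrays. After NR the background of young Csb arrays was 59.7 to 66.2, above that of old Csb arrays. The part of these measures in the genotype, diet and age differences was not tested.

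Counted over comparisons, the members' calls can be set beside those of all probes. For genotype, 3 of 5 members were called on the standard diet, where 13.8% of all probes were called, 0 of 5 on the high-fat diet (8.63%), 1 under restriction (0.296%) and 1 with resveratrol (18.4%). Against the standard diet in Csb mice, 3 of 5 members were called on the high-fat diet (17.1%), 0 under restriction (0.0873%) and 2 with resveratrol (13.5%). In WT mice no member was called on the high-fat diet (0.0806%), under restriction (2.18%) or with resveratrol (0%). The share of probes called was itself high on the diets where most member calls fell.

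For genotype after injection 1 member, Gpd2, was called in old mice after saline and after NR, as above. For NR against saline no member was called in young Csb (0% of probes), old Csb (0%), young WT (0%) or old WT mice (0.0717%). For age, besides the calls in Csb mice given above, no member was called in WT mice after saline (1.30%) or after NR (14.2%). By member, Slc6a3 had 1 call, Gabra6 2, Gpd2 6, ILMN_3159435 2 and Aqp1 3 among 22 comparisons each. The diet-arm calls, except that of Gpd2 under restriction, fell in comparisons where 13.5% to 18.4% of all probes were called.

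No interaction was called for any member by limma. The 7 interactions were genotype by high-fat diet (0.504% of all probes called), by restriction (0.867%), by resveratrol (0.00672%), by NR in young (0%) and old mice (0.0358%), and by age after saline (0.0358%) and after NR (0%). Of the 35 tests on members, 4 had an unadjusted p under 0.05. Among them was genotype by high-fat diet for ILMN_3159435 (-2.55, SE 0.80, limma adjusted p = 0.105). A difference called in one genotype, diet or age and not in another is therefore not shown to differ between them.

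The members did not swing together as a set. Deviations from group means were compared for the 10 pairs over 71 arrays by permuting arrays within groups (100000 two-sided permutations, Benjamini-Hochberg adjusted over 10 pairs). Slc6a3 and Gabra6 moved in opposite directions (r = -0.54, adjusted p = 0.0375; Spearman rho = -0.44, adjusted p = 0.0207). The other 9 pairs had r between -0.29 and 0.18, with adjusted p of 0.372 or more. Slc6a3 against Gabra6 gave r = -0.61 over diet arrays (adjusted p = 0.09) and -0.39 over injection arrays (adjusted p = 0.573). Without the 2 arrays farthest from the median of Slc6a3 it was -0.39 (adjusted p = 0.351), and without the 4 arrays low in Pcp2 it was -0.31 (adjusted p = 0.187), so the relation rests in part on those arrays. The gaps separated the same arrays only in part. Of the 11 arrays above the Slc6a3 gap, 4 were among the 5 below the Gabra6 gap, so arrays dim in Gabra6 were mostly bright in Slc6a3. Of the same 11, 3 were among the 9 below the Gpd2 gap, all of old Csb saline. The 11 included 2 of the 8 below the Aqp1 gap and 0 of the 5 above the ILMN_3159435 gap.

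Within groups, array brightness moved little with the levels of the members, which were already corrected for background and quantile-normalized. Group means were removed from both, so differences in brightness between groups were not covered. The part of array brightness in the ranges and gaps of deposited intensity was not tested. Among 15 relations of the members with the share of probes detected, the background level and the highest intensity, 1 passed, that of Gabra6 with the background level (r = -0.34, permutation p adjusted over 15 relations = 0.0481). Spearman rho was -0.36 (adjusted p = 0.0607), and without the 2 farthest arrays r was -0.39 (adjusted p = 0.0435). It missed the threshold over diet arrays (-0.40, adjusted p = 0.168) and over injection arrays (-0.33, adjusted p = 0.86). Without the 4 arrays low in Pcp2 it was -0.29 (adjusted p = 0.588).

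The cell type marker lists moved with 3 of the members. Among 45 relations of 5 members with 9 lists, scored without the members' own probes, 11 passed a permutation p adjusted over the 45. This family of relations was added after the values were seen. Aqp1 followed the choroid plexus list (r = 0.90, rho = 0.84, adjusted p = 9e-05 and 1.1e-04), over diet arrays (0.86), over injection arrays (0.97), without the 2 farthest arrays (0.86) and without the 4 arrays low in Pcp2 (0.91). The unadjusted p of 1e-05 is the smallest that these permutations can give. Gpd2 and ILMN_3159435 passed with none of the 9 lists, and no member passed with the blood or endothelium list.

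Gabra6 followed the granule cell list most closely (r = 0.95, rho = 0.94, adjusted p = 9e-05 and 1.1e-04), with 0.97 over diet arrays, 0.83 over injection arrays, 0.94 without the 2 farthest arrays and 0.90 without the 4 arrays low in Pcp2. Its r with the Purkinje cell list was 0.92 (rho = 0.68) and with the list of astrocytes and Bergmann glia 0.90 (rho = 0.74), which became 0.51 and 0.60 without those 4 arrays. In the injection arm these 2 relations were 0.31 and 0.51 and missed the threshold (adjusted p = 0.356 and 0.171). With microglia r was -0.30 (rho = -0.55). These 4 relations had an adjusted p of 9e-05 over all arrays.

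Slc6a3 passed with 6 lists. It rose with the forebrain, brainstem and pituitary list (r = 0.46, rho = 0.41, adjusted p = 0.00302 and 0.00625), which was 0.47 over diet arrays, 0.45 over injection arrays (adjusted p = 0.194), 0.36 without the 2 farthest arrays and 0.47 without the 4 arrays low in Pcp2. It also rose with oligodendrocytes (r = 0.44, rho = 0.43, adjusted p = 0.00759 and 0.00596) and microglia (r = 0.31, rho = 0.39, adjusted p = 0.0159 and 0.00648). It fell with granule cells (r = -0.60, rho = -0.47, adjusted p = 0.00187 and 0.00596), Purkinje cells (r = -0.56, rho = -0.45, adjusted p = 0.0124 and 0.0105) and astrocytes and Bergmann glia (r = -0.50, rho = -0.26, adjusted p = 0.031 and 0.176). Without the 4 arrays low in Pcp2 the relation with granule cells was -0.41 (adjusted p = 0.0331) and with oligodendrocytes 0.49 (adjusted p = 0.00195). Those with Purkinje cells (-0.34, adjusted p = 0.125), astrocytes and Bergmann glia (-0.03, adjusted p = 0.944) and microglia (0.30, adjusted p = 0.0703) missed the threshold. None of the 6 passed in the injection arm alone.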

How the data were processed

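The deposited table gives, per probe and array, an intensity on a linear scale that is not normalized, and a detection p-value, both per the file headers. The submitters' processing notes list GenomeStudio 1.9.0. The authors' second table holds a score per probe and array, which equals a z-score per array of log-scale intensities and served as an alternative. Of the columns that hold samples, 0 were left unused. The platform annotation gave 1 gene symbol to 23978 probes and none to 1719.

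Each arm was corrected for background and quantile-normalized (neqc, offset 16) with limma 3.58.1 in R 4.3.3. Probes with a detection p under 0.01 on at least 4 (diet) or 3 (injection) arrays were kept, and all 8 groups of an arm entered 1 fit (lmFit, eBayes). Fits were tested on simulated data. These gave each probe the same spread in all groups, unlike the members, so they do not cover the fits of the members. Named probes besides the members are, for each, the 3 with the highest and the 1 with the lowest r of deviations from group means, and the marker genes. Members, lists and the arrays treated separately were chosen with earlier results of these data known. No chip, position or scan date is in the table, so no batch term was fitted. The number of arrays limits the precision. Alternatives covered background correction, scaling, filter, arrays in the fit, array weights, a replicate block and leaving out arrays. Replicate numbers in the titles did not pair the arrays.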

Additional observations from a re-analysis of the deposited data

Results flagged for a closer look

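In groups of 4 to 10 arrays, 1 array can stand apart from all others by more than Dixon's 95% critical value of the gap over the range. Of 60 groups tested over the 5 members, 7 held such an array, where chance flags about 1 in 20 groups of unselected values. The members were chosen for their spread within groups, so the number of such arrays is a description and supports nothing. For Slc6a3 these were the highest arrays of 4 groups: Csb resveratrol replicate 2 (level 6.94, intensity 218.1, the others at 71.3 to 80.0), high-fat WT replicate 4 (6.39, 104.1), young WT saline replicate 3 (6.24, 149.8) and young WT NR replicate 3 (7.21, 171.5). For Gabra6 they were the lowest arrays of 2 groups, Csb restricted replicate 6 (level 4.58, intensity 75.7) and WT standard-diet replicate 1 (4.65, 72.6), both among the 4 arrays lowest in Pcp2. For Gpd2 it was the lowest array of the Csb high-fat group, replicate 6 (level 9.64, intensity 934.0).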

How the results depend on the processing

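The count of member calls in the diet arm was 10, and 7 to 10 under the other settings, with 9 under the replicate block by title number or by sample name and 7 without the 4 arrays lowest in Pcp2, an alternative chosen after seeing the data. Leaving out 1 array gave 5 to 11. In the injection arm it was 4, and 3 to 5 elsewhere, with 4 under the replicate block, except 7 with array weights, and leaving out 1 array gave 3 to 6. Interactions called were 0, but 1 with array weights and 1 with only the groups compared in the fit. The 1 member pair that passed became 0 in the diet arm alone, in the injection arm alone, without the 2 farthest arrays and without the 4 arrays. The 1 array measure became 0 with z-scores, the authors' values, Spearman's rho, either arm alone and without the 4 arrays, and the 11 marker list relations became 4 in the injection arm alone. The Gpd2 gap of 0.94 became 0.26 with at least 10 arrays on either side, since only 9 lie below it, and 0.30 in the diet arm and 1.61 in the injection arm alone. The Gabra6 gap of 0.34 became 2.08 in the diet arm alone with at least 3 arrays on either side. Gaps by arm and without the 4 arrays were added after seeing the data. Over the settings run the gap of Aqp1 (0.38) ran from 0.17 to 0.90 and that of Slc6a3 (1.01) from 0.61 to 1.75. The within-group log2 range of Aqp1, 3.62, became 5.24 on normalized levels. The cause of the other changes was not tested. The replicate block lost the call of Gabra6 on the high-fat diet in Csb (2.50, limma adjusted p = 0.0533, or 0.0651 by sample name) and no other. Titles' numbers gave a mean r of 0.008 over 128 pairs in the diet arm and 0.035 over 90 in the injection arm, and 4 of 41 and 10 of 28 arrays correlated best with their own number. Array weights lost all 3 Aqp1 calls (limma adjusted p = 0.1, 0.255 and 0.319). No call changed direction under the settings run. Where a probe is not detected, its level is background and the size of a difference is not exact.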
